A study of Mus musculus with 18 samples.

Results

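The collagen genes were taken as every row name of the deposited normalized table that has the form Col, a number, a, a number. The rule found 44 genes among 48952 rows, and all 44 were matched in the deposited count table of 49585 gene identifiers. They were grouped as 11 fibrillar collagens, 6 type IV chains, 6 type VI chains and 21 other collagens. RNA had been sequenced from 18 lung metastases of the AT3 line, mammary carcinoma cells that derive from a tumour of an MMTV-PyMT transgenic mouse. The AT3 cells carried GFP and mCherry, were placed in the mammary fat pad and reached the lungs without a further injection, and lesions were cut from frozen sections with a laser. One tumour line was used in every mouse, and lung tissue around or within a lesion can be part of a capture.

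Hosts in both groups carried the strain label Rag2-/-IL2rg-/-, whereas the growth protocol names Rag1-/-IL2rg-/-. Such mice have no T, B or NK cells of their own and keep myeloid cells. On day 11 the mice labelled NK transferred were given 60000 murine NK cells, activated in vitro, into a vein, and the mice labelled Ctrl were given PBS. The labels give no age. Mice NK1 (3 lesions) and NK2 (4 lesions) received NK cells, and mice KO1 (5 lesions), KO2 (4 lesions) and KO3 (2 lesions) did not. Lesion names join mouse and lesion number (NK1-1 came from mouse NK1). Lesions of a mouse share a host, so the mouse was the replicate for treatment (n = 2 and n = 3). In captured tissue, fewer cells of a type and less RNA per cell cannot be told apart.

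Collagens are secreted trimers whose chains wind around each other along a stretch where each triplet of residues starts with glycine, the Gly-X-Y repeat. Fibrillar collagens (types I, II, III, V, XI, XXIV and XXVII) have a long unbroken repeat and pack into the fibrils of connective tissue, which fibroblasts deposit around tumours. Type IV chains have a repeat with many interruptions and form the network of basement membranes under epithelium and endothelium. Type VI chains form beaded filaments beside the cell surface, and the remaining types sit on fibrils, link basement membranes to the matrix or span the plasma membrane. In the GENCODE M21 transcripts, the longest unbroken run of Gly-X-Y triplets was 216 to 344 triplets (median 338) in the fibrillar members. It was 39 to 66 in type IV, 37 to 87 in type VI and 23 to 113 in the other members.

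The repeat is shown for the 2 fibrillar members whose levels the results set against each other and for a type IV member. Each line is a run of coding sequence from GENCODE M21, with positions counted from the first base of the start codon and the glycine codons in capitals.
Col3a1-201, coding bases 490 to 579: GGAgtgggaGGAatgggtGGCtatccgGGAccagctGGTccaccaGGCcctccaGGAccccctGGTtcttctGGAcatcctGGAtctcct
Col1a1-201, coding bases 502 to 591: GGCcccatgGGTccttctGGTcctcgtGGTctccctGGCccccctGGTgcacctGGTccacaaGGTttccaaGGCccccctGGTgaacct
Col4a2-201, coding bases 2329 to 2418: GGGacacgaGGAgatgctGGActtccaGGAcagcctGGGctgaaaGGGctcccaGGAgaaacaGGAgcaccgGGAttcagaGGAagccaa
All 10 triplets of each run start with a glycine codon. GC content over the whole transcript was 52.5% for Col3a1, 58.9% for Col1a1 and 55.7% for Col1a2.

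Total counts were 2964241 to 11798853 per lesion, and collagen genes took 1667 to 50187 of them. Between 12.1% and 68.7% of counts fell on mt-Rnr2, a ribosomal RNA of mitochondria. The share exceeded 40% in 6 lesions, namely all 3 of mouse NK1, KO1-2, KO1-5 and KO3-2. Lesion NK1-1 stood apart with 1262 CPM (counts scaled to a common library size) summed over 5 fat cell markers, against at most 4.77 CPM in any other lesion. NK1-3 and KO3-1 had the highest summed levels of 4 airway epithelium markers, 24195 and 15214 CPM. Where a fit or correlation without them was run and the value moves, results that rest on these lesions are given both ways. Of the carcinoma epithelium markers, Krt18 was present in every mouse at 33.3 to 92.6 CPM, and Krt14 and Krt5 had 0 counts in every mouse but NK1.

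Across the 18 lesions the collagen transcripts were led by Col3a1. Levels are compared between genes as CPM per kb of transcript, on library sizes scaled with TMM. By the median over lesions, Col3a1, which encodes the chain of type III collagen, had 63.2 CPM per kb. It was followed by Col18a1, the basement membrane collagen whose end fragment is endostatin, with 42.2 CPM per kb. Col16a1, a collagen that sits on fibrils, had 27.9 CPM per kb, and the type VI chain Col6a1 had 23.7. Col1a2, a chain of type I collagen, had 13.8 CPM per kb. These neighbours overlapped widely, since Col18a1 ranged from 3.93 to 79.8 CPM per kb and Col16a1 from 13.8 to 69.5. Col1a1, the other chain of type I collagen, had a median of 1.45 CPM per kb.

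Transcripts of the type I chains were unequal in every lesion. The type I molecule holds more alpha 1 chains, from Col1a1, than alpha 2 chains, from Col1a2. Per kb of transcript, Col1a2 exceeded Col1a1 in all 18 lesions, by 1.91-fold in KO1-4 to 14.5-fold in KO2-2. The GC content of Col1a1 is higher, and its part in this ratio was not tested. The ratio of Col3a1 to Col1a2 per kb was 76.5 in NK1-1 and 1.39 to 16.2 in the other 17 lesions. Col4a1 and Col4a2, which are built into one type IV molecule, were closer, with Col4a1 at 0.657-fold to 4.13-fold the level of Col4a2 per kb.

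Many members were near or at the limit of detection. Of the 44 genes, 42 had any count and 17 had fewer than 100 counts over all lesions. Col6a4 and Col25a1 had 0 counts, which allows at most 0.0179 CPM over all lesions by counting error alone. Types II, IX and X, collagens of cartilage, were almost unseen, with 1 count of Col2a1, 2 of Col9a1, 2 of Col9a2, 4 of Col9a3 and 12 of Col10a1. Col11a1 and Col11a2, which cartilage also uses, had 65 and 27 counts, and Col27a1 had 631. The low count filter kept 31 members for the comparison of treatments (9 fibrillar, 6 type IV, 3 type VI and 13 other) and 30 for the comparison of mice. The 13 members left out of the first comparison had at most 27 counts each.

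The study set lesions that grew with transferred NK cells against lesions that grew without them. None of the 31 collagen genes tested passed between the 2 NK mice and the 3 Ctrl mice in edgeR's quasi-likelihood test with Benjamini-Hochberg adjustment at 0.05. Of the 16917 genes tested, 0% passed, and the adjusted p of each collagen gene was 0.9998. At an unadjusted p under 0.05 there were 5 members, Col6a3, Col3a1, Col11a1, Col7a1 and Col6a2, all higher with NK cells, where 1.55% of all genes tested were higher at that level. DESeq2 called 1 of 42 members, Col3a1 (adjusted p = 0.0421), beside 0.149% of 26143 genes. Without the low count filter edgeR called 2 of 42, Col3a1 (adjusted p = 6.05e-05) and Col6a3 (adjusted p = 1.52e-04), beside 0.856% of 26158 genes. The smallest one-sided p that an exact permutation test allows for 2 and 3 mice is 0.1. The sign was positive for 19 of 31 members and negative for 12, with a median log2 fold change of 0.10 against -0.03 over all genes tested. Of those 16917 genes, 8172 were positive and 8745 negative. In 7 members both NK mice lay above every Ctrl mouse, namely Col3a1, Col6a3, Col5a1, Col7a1, Col6a2, Col17a1 and Col11a1, which held for 7.94% of all genes tested. In 0 members did both lie below, which held for 6.86%.

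**Figure D1:**
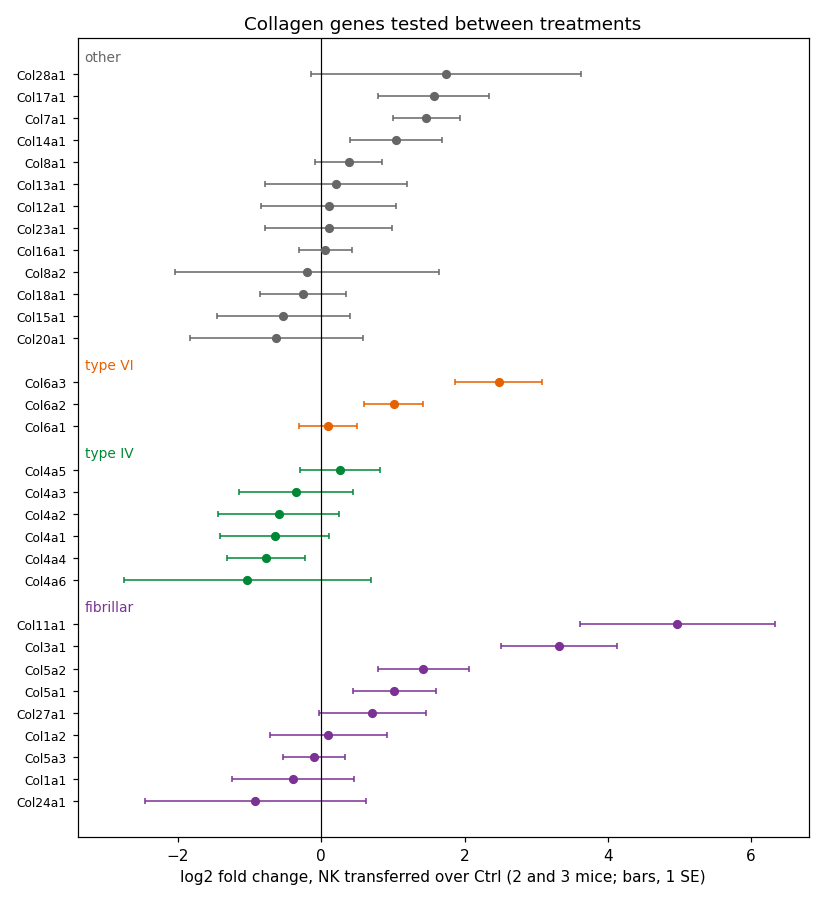
Log2 fold changes of the 31 tested collagen genes, NK transferred over Ctrl (edgeR, 2 and 3 mice), by class; points are fitted values and bars 1 SE. Type VI chains lie at 0.09 to 2.47, 5 of 6 type IV chains lie below 0, and the fibrillar genes spread from -0.92 for Col24a1 to 4.97 for Col11a1.

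Among fibrillar collagens, Col3a1 (chromosome 1, 45311538 to 45349706 on GRCm38, plus strand) separated the lesions by treatment label. Type III collagen is abundant in the lung and in young connective tissue. In mouse NK1 the lesions had 6953, 1843 and 398 CPM, and in NK2 they had 414, 449, 765 and 586 CPM. The lesions of KO1 had 333, 296, 370, 213 and 289 CPM. Those of KO2 had 389, 271, 218 and 331 CPM, and those of KO3 had 179 and 64.4 CPM. Each NK lesion was thus above each Ctrl lesion, although NK1-3 (398) and KO2-1 (389) were close. Only 3 of the 16917 genes tested had every NK lesion above every Ctrl lesion (0.0177%), the others being Lrrc17 and Il2rb, which were named after their values were seen.

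Summed per mouse, Col3a1 had 4652 and 590 CPM in NK1 and NK2 and 325, 323 and 142 CPM in KO1, KO2 and KO3. Its log2 fold change was 3.32 ± 0.81 (SE; unadjusted p = 0.00363, edgeR). The size rested on mouse NK1, as the log2 fold change was 1.17 without that mouse and 1.89 without lesion NK1-1 alone. Without the 6 lesions above 40% mt-Rnr2, which leaves NK2 as the lone NK mouse, it was 1.06. In NK1-1, Col3a1 made up 87.4% of all collagen counts, against 7.30% to 48.4% in the other lesions. Summed levels of 10 fibroblast markers, all of them detected, were 68.3 to 1195 CPM in NK lesions and 94.2 to 317 CPM in Ctrl lesions, and NK1-1 was the highest. Per mouse they were 908 and 340 CPM against 242, 280 and 155 CPM, so that both NK mice were above every Ctrl mouse in the sum. The sum of NK1 was led by Dpt, Dcn and Postn (316, 297 and 232 CPM). By single marker, 5 of 10 had a positive log2 fold change and 5 a negative one, with a median of -0.17. Both NK mice were above every Ctrl mouse in 1 marker and below in 1 (7.94% and 6.86% of all genes tested). The part of the fibroblast markers in the Col3a1 difference, and that of the fat cell markers of NK1-1, was not tested. In NK1-3 the fibroblast sum was the lowest of all lesions (68.3 CPM), and Col3a1 was the lowest of the NK lesions (398 CPM). NK1-3 was also the lesion with the fewest counts (2964241).

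**Figure D2:**
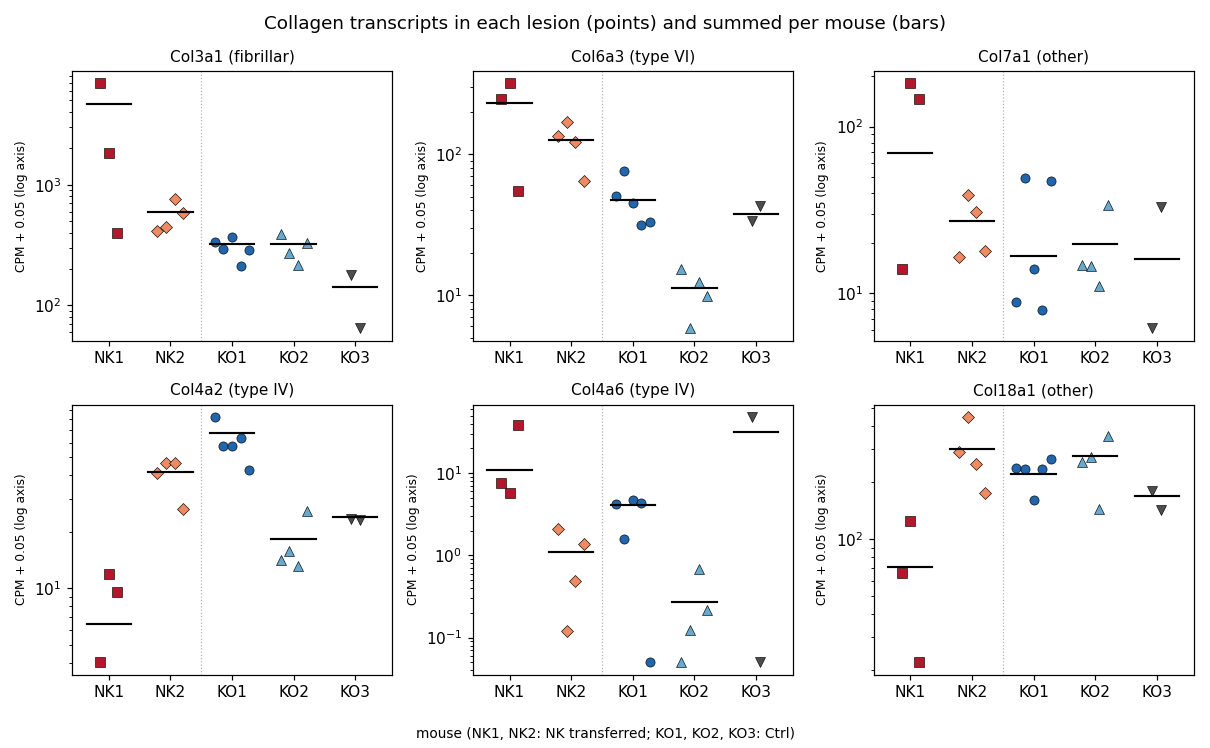
CPM of 6 collagen genes in each lesion (points; log axis after adding 0.05) by mouse, with the level summed over the lesions of the mouse as a bar. All 7 NK lesions lie above all 11 Ctrl lesions for Col3a1, while Col4a2, Col4a6 and Col18a1 differ between mice that share a treatment.

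The other fibrillar genes were less uniform. Col5a1 and Col5a2 encode chains of type V collagen, which nucleates fibrils. Col5a1 had 78.7 and 79.0 CPM in the NK mice and 71.9, 25.3 and 19.1 CPM in the Ctrl mice, a log2 fold change of 1.02 ± 0.57. Both NK mice were above every Ctrl mouse, but KO1 came close to them. In NK1, Col5a1 had 186 CPM in NK1-2, but 51.5 in NK1-1 and 36.0 in NK1-3. The place of NK1 above KO1 thus rests on 1 lesion, and the log2 fold change was 0.69 without NK1-2. Col5a2, which lies 24614 bases from Col3a1 on the opposite strand, had 59.4 and 19.6 CPM against 25.3, 9.06 and 9.57 CPM (log2 fold change 1.43 ± 0.64). Its value was 0.42 without mouse NK1 and 0.24 without the lesions of high mt-Rnr2. Col11a1, a minor fibrillar chain found in tumour stroma, had 60 counts in NK lesions, 33 of them in NK1-1, against 5 in Ctrl lesions. Its fitted log2 fold change of 4.97 ± 1.36 rests on few counts and was 2.75 without NK1. Col24a1, at 0.19 and 0.36 CPM against 1.06, 0.50 and 0 CPM, gave -0.92 ± 1.55.

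For type I collagen the highest mouse was a Ctrl mouse. Col1a1 had 14.3 and 11.9 CPM in the NK mice and 39.3, 5.70 and 6.44 CPM in the Ctrl mice, so that mouse KO1 exceeded both (log2 fold change -0.40 ± 0.85). This came from 3 lesions of KO1, with 36.4 CPM in KO1-1, 43.9 in KO1-3 and 49.0 in KO1-4, while KO1-2 had 8.35 and KO1-5 had 6.97. Without KO1 the sign turned and the log2 fold change of Col1a1 was 1.13. Col1a2 had 82.3 and 91.6 CPM against 171, 56.1 and 16.1 CPM, with a log2 fold change of 0.10 ± 0.81, and its sign turned as well, to -0.39 without KO3. Col5a3, another type V chain, was highest in KO1-5 (418 CPM) and KO1-2 (226 CPM), where mt-Rnr2 took 68.7% and 58.3% of counts, and its log2 fold change was -0.10 ± 0.43. Col27a1, a fibrillar collagen of cartilage, gave 0.71 ± 0.75 and was highest in NK1-3 at 22.02 CPM. Taken without Col3a1, the summed fibrillar level was 310 and 254 CPM in the NK mice and 394, 135 and 116 CPM in the Ctrl mice, which overlapped. With Col3a1 it was 4962 and 844 CPM against 719, 458 and 257 CPM.

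The type VI chains had positive values in 3 of 3 tested members, where 8172 of all 16917 genes tested were positive. In 2 of the 3 chains both NK mice lay above every Ctrl mouse, which held for 7.94% of all genes tested. Col6a3 (chromosome 1, 90765923 to 90843971, minus strand), the long chain whose end fragment is endotrophin, had 247, 319 and 55.0 CPM in the lesions of NK1. In NK2 it had 133, 168, 122 and 64.01 CPM. The lesions of KO1 had 50.6, 75.5, 45.1, 31.5 and 33.0 CPM. Those of KO2 had 15.3, 5.75, 12.2 and 9.87 CPM, and those of KO3 had 33.5 and 42.5 CPM. In 5 of 7 NK lesions Col6a3 was above every Ctrl lesion, and NK1-3 and NK2-4 lay below KO1-2. Per mouse it was 229 and 126 CPM against 47.2, 11.3 and 37.6 CPM, a log2 fold change of 2.47 ± 0.60 (unadjusted p = 0.00356, edgeR). It kept a value of 1.99 to 2.89 when any mouse or lesion was left out and was 2.04 without the lesions of high mt-Rnr2.

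Col6a2 had 21.6 and 33.3 CPM in the NK mice and 15.4, 13.7 and 11.7 CPM in the Ctrl mice, a log2 fold change of 1.01 ± 0.41 (unadjusted p = 0.0388, edgeR). In NK1 it had 52.9 CPM in NK1-2, but 13.5 in NK1-1 and 9.54 in NK1-3, within the 9.48 to 23.2 CPM of the Ctrl lesions. The place of NK1 above the Ctrl mice thus rests on 1 lesion. Col6a1, which is needed with Col6a2 for a type VI molecule to form, had 69.8 and 136 CPM against 90.9, 83.8 and 115 CPM (0.09 ± 0.41). The 3 chains therefore did not keep one ratio. Col6a3 relative to Col6a1 per kb was 3.57 in NK1-1 and 0.267 to 0.645 in the other NK lesions, against 0.0299 to 0.274 in the Ctrl lesions. Summed type VI transcripts were 308 ± 17.5 CPM (SD, n = 2) with NK cells and 142 ± 29.7 CPM (n = 3) without, and the mice did not overlap. Of these sums Col6a3 gave 229 and 126 CPM in the NK mice and 47.2, 11.3 and 37.6 CPM in the Ctrl mice. Col6a1 was lower in NK1 (69.8 CPM) than in every Ctrl mouse, so the sum does not show a rise of all 3 chains. Col6a5 and Col6a6, alternatives to Col6a3 in the molecule, had 10 and 4 counts in all.

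Type IV chains had a negative sign in 5 of 6 tested members, with a median log2 fold change of -0.62. Over all genes tested, 8745 of 16917 were negative and the median was -0.03. In 0 of the 6 chains were the groups of mice apart. Of all genes tested, 7.94% had both NK mice above every Ctrl mouse and 6.86% had both below. Col4a1 had 17.6 and 75.5 CPM in the NK mice against 138, 40.02 and 42.1 CPM in the Ctrl mice (-0.65 ± 0.76). Col4a2 had 6.38 and 41.9 CPM against 67.4, 18.4 and 23.8 CPM (-0.59 ± 0.84). Without mouse KO1 these became 0.20 and 0.21, and without the lesions of high mt-Rnr2 Col4a2 gave 0.14. Col4a4, a chain of specialised basement membranes such as those of the alveolus and kidney, had 10.5 and 20.04 CPM against 16.4, 21.3 and 40.5 CPM (-0.77 ± 0.54). Its negative sign held in all 23 fits with 1 mouse or lesion removed. Col4a6 gave -1.03 ± 1.73, with a wide spread between mice. Of the summed markers, endothelial genes were 55.0 and 132 CPM in the NK mice and 138, 126 and 98.1 CPM in the Ctrl mice, and the mouse NK1 was lowest. In NK1-3 the sum was the highest of all lesions (317 CPM), but 316 CPM of it were Kdr. The other markers there were near 0 (Pecam1 0, Cdh5 0.73, Tie1 0 and Tek 0.73 CPM). Col4a1 stood at 16.1 CPM and Col4a2 at 9.54 CPM in that lesion. Per mouse, Pecam1, Cdh5, Tie1 and Tek were each lowest in NK1, with 2.28 CPM of Pecam1 against 21.2 to 26.5 CPM in the other mice. Kdr was highest in NK1 (45.6 CPM). The correlation of the sum with Col4a2 was 0.40 over 18 lesions and -0.29 without NK1-1 and NK1-2, which keeps the Kdr value of NK1-3. The part of these markers in the type IV values was not tested.

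Among the other collagens, Col7a1, which forms the anchoring fibrils under stratified epithelium, had 69.6 and 27.2 CPM in the NK mice and 16.6, 19.8 and 16.01 CPM in the Ctrl mice. The log2 fold change was 1.47 ± 0.47 (unadjusted p = 0.0146, edgeR). By lesion the groups overlapped, with 182 and 146 CPM in NK1-2 and NK1-3, 13.8 CPM in NK1-1 and 16.5 to 38.7 CPM in NK2, against 6.07 to 48.9 CPM in Ctrl lesions. The value was 0.64 without mouse NK1. Over 18 lesions Col7a1 correlated with the mt-Rnr2 share (r = 0.61, rho = 0.40). Its 2 highest Ctrl lesions, KO1-2 and KO1-5, were also those of highest mt-Rnr2 among the Ctrl lesions, and the part of the share in the difference was not tested.

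Col17a1, a transmembrane collagen of hemidesmosomes, had 5.61 and 2.39 CPM against 1.42, 1.29 and 1.31 CPM (1.57 ± 0.78). In NK1 it had 9.04 CPM in NK1-1, 0.82 in NK1-2 and 0 in NK1-3, so the place of that mouse above the Ctrl mice rests on 1 lesion. Col18a1 had 71.3 and 303 CPM in the NK mice, on either side of the 221, 277 and 170 CPM of the Ctrl mice (-0.25 ± 0.60). Col16a1 gave 0.06 ± 0.37, Col8a1, a chain of vessel walls, gave 0.38 ± 0.46 and Col23a1, a transmembrane collagen, gave 0.10 ± 0.89. The other class summed to 471 and 528 CPM against 466, 538 and 422 CPM and overlapped.

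**Figure D3:**
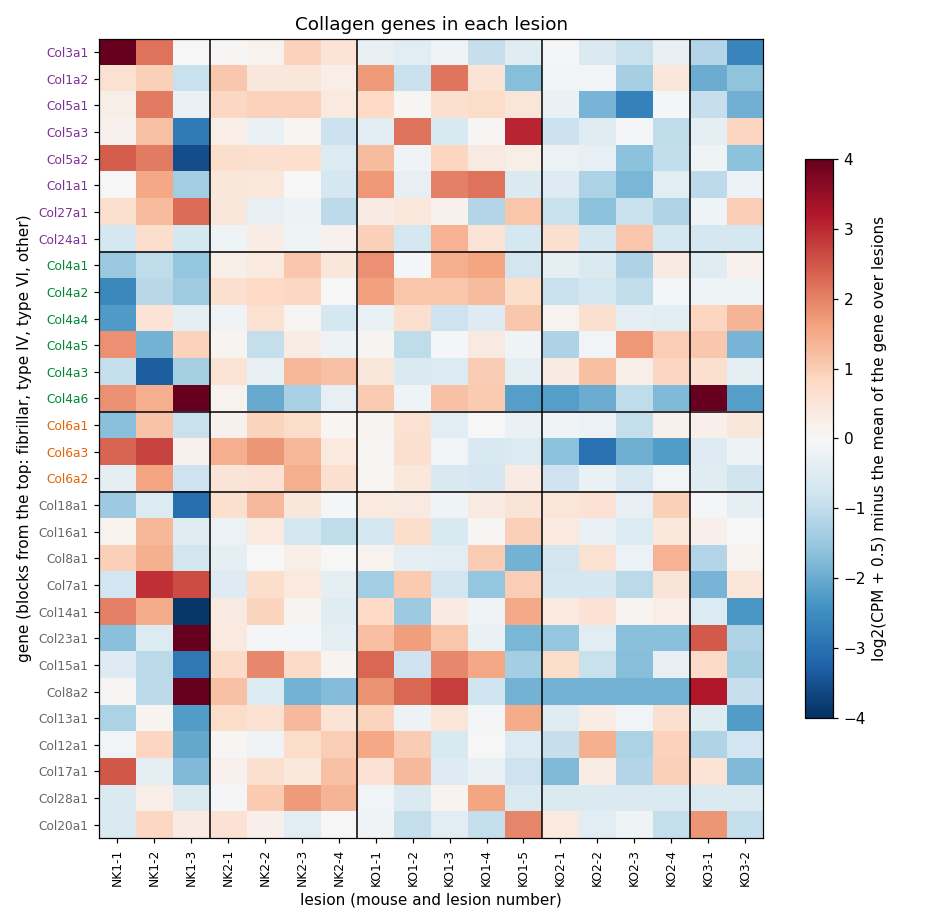
Log2(CPM + 0.5) of the 30 collagen genes tested between mice, less the mean of each gene over the 18 lesions; columns are lesions by mouse, rows are genes by class, red is above and blue below the mean, and the scale stops at 4. Col4a2 is low in all 3 lesions of NK1 and high in all 5 of KO1, while Col4a6, Col8a2 and Col23a1 are high in NK1-3 and KO3-1.

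Since NK1 and NK2 were often far apart, mice of one treatment were compared with each other, using their lesions as replicates. A joint edgeR test asked whether NK2 differed from NK1, or KO2 or KO3 from KO1, by more than lesions of a mouse differ. It says nothing on treatment. Of the 30 members tested, 6 passed, against 5.35% of the 15741 genes tested. At an unadjusted p under 0.05 there were 15 members (50%), against 27.3% of all genes. DESeq2 called 13 of 42 members and 11.7% of 25759 genes. The 6 were the type IV chains Col4a2, Col4a6 and Col4a1, with Col6a3, Col3a1 and Col18a1. Just outside the threshold were Col1a1 (adjusted p = 0.0628), Col8a2 (0.0666) and Col27a1 (0.0687) by the same edgeR test.

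Col4a2 had the smallest adjusted p of the members (0.00273, edgeR). Its lesions had 3.97, 11.9 and 9.54 CPM in NK1, and 41.1, 46.3, 46.8 and 26.5 CPM in NK2. In KO1 they had 82.2, 57.5, 57.4, 63.3 and 42.7 CPM. Lesions of KO2 had 14.01, 15.8, 13.1 and 25.6 CPM, and lesions of KO3 had 23.4 and 23.1 CPM. Lesions of NK1 and NK2 did not overlap, nor did those of KO1 with either of the other Ctrl mice. On the log2 scale NK2 exceeded NK1 by 2.28, while KO2 and KO3 fell below KO1, with differences of -1.82 and -1.38. Col4a1 had the same signs in each of these contrasts (1.93, -1.49 and -1.26, adjusted p = 0.0306, edgeR). Col4a2 passed in all 18 fits that left out 1 lesion (adjusted p 0.00143 to 0.00886), and Col4a1 in 9 of 18.

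Markers of mesothelium, the cell layer on the lung surface, also differed between these mice. The sum of 4 markers, all detected, was at most 2.07 CPM in the lesions of NK2 and KO1, where Col4a2 had 26.5 to 82.2 CPM. The sum was 32.8 to 153 CPM in the lesions of NK1 and KO2, where Col4a2 had 3.97 to 25.6 CPM. In KO3 the sum was 3.57 and 11.4 CPM and Col4a2 stood at 23.4 and 23.1 CPM. The lesions of a mouse share the host, and the part of the mesothelium markers in Col4a2 was not tested. Over 18 lesions Col4a2 correlated with the mt-Rnr2 share at r = -0.19 (rho = -0.09).

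Col4a6, a chain of some epithelial basement membranes, passed with an adjusted p of 0.0204 (edgeR) in spite of a wide spread within mice. It had 7.61, 5.74 and 38.2 CPM in NK1 and 2.02, 0.0694, 0.432 and 1.32 CPM in NK2. In KO1 it had 4.18, 1.55, 4.70, 4.26 and 0 CPM, and in KO2 it had 0, 0.0728, 0.626 and 0.166 CPM. The lesions of KO3 had 48.3 and 0 CPM, or 366 and 0 counts, so the value for that mouse is that of 1 lesion. Col4a6 passed in all 18 fits that left out 1 lesion (adjusted p 0.00736 to 0.0484).

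The remaining calls depended more on single lesions. Each adjusted p is that of the joint test, and no single contrast was tested. Col6a3 had an adjusted p of 0.0320 (joint edgeR test) and passed in 10 of 18 fits without 1 lesion. Its largest log2 difference was -2.13, for KO2 to KO1. Col3a1 had an adjusted p of 0.0408 (joint edgeR test). Its log2 difference was -2.47 for NK2 to NK1, 0.0088 for KO2 to KO1 and -1.30 for KO3 to KO1. It passed in 5 of 18 fits, and the adjusted p was 0.106 without NK1-1. Col18a1 had an adjusted p of 0.0483 (joint edgeR test). Its largest log2 difference was 2.03, for NK2 to NK1, with 66.0, 124 and 22.02 CPM in NK1 and 176 to 446 CPM in NK2. It passed in 2 of 18 fits, and the adjusted p was 0.102 without NK2-2.

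Chains that form one molecule were set against each other over the lesions. The correlations are of log2(CPM + 0.5) over 18 lesions that share hosts and libraries, and are given without a p. Col4a1 and Col4a2 gave r = 0.84 (rho = 0.85), 0.79 without the 2 lesions of extreme Col4a1 and 0.54 after the mean of each mouse was taken off. Col1a1 and Col1a2 gave r = 0.75 (rho = 0.80) and 0.86 within mice. Col6a1 and Col6a2 gave 0.63 (rho = 0.59), and Col6a1 and Col6a3 gave 0.24 (rho = 0.38). Without NK1-1 and NK1-2, the extremes of Col6a1, these became 0.62 and 0.53. Col5a1 and Col5a2 gave 0.63 (rho = 0.78). The median over all 435 pairs of the 30 members was 0.13.

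Col3a1 gave r = 0.62 with Col5a2 (rho = 0.52), 0.45 with Col1a2 (rho = 0.59) and 0.19 with Col1a1 (rho = 0.27). Without NK1-1 and KO3-2, the extremes of Col3a1, r was 0.40 with Col5a2, 0.44 with Col1a2 and 0.30 with Col1a1, and within mice it was 0.83, 0.32 and 0.23. Col4a3 and Col4a4, chains of one type IV molecule whose genes lie head to head with 71 bases between them, gave -0.05, and -0.58 within mice. The mt-Rnr2 share correlated with Col4a3 at -0.73 and with Col4a4 at 0.20. Col8a1 and Col8a2, both chains of type VIII collagen, gave -0.34.

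**Figure D4:**
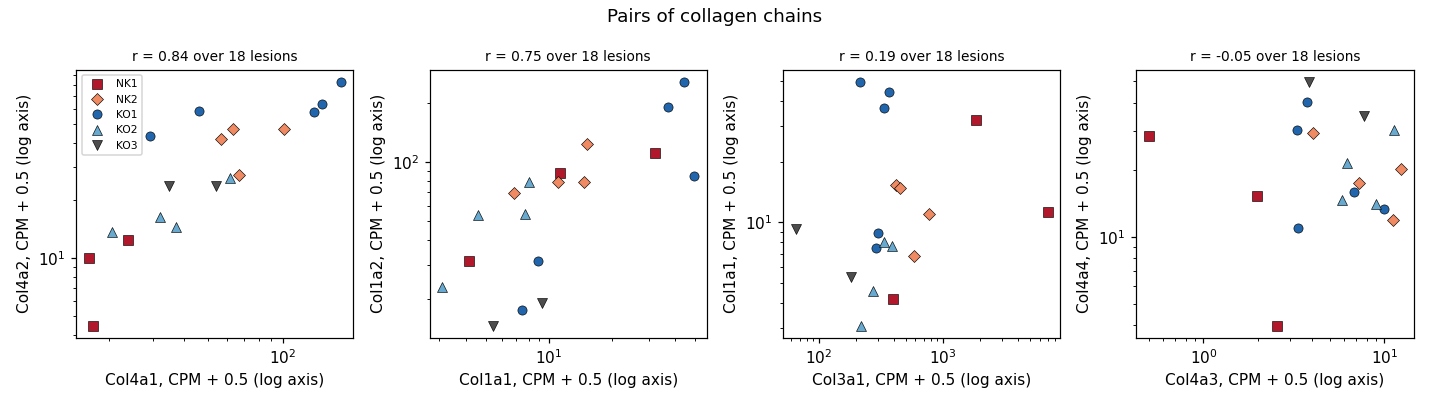
CPM of 4 pairs of collagen genes in each of 18 lesions (log axes after adding 0.5), with symbols by mouse. The type IV pair Col4a1 and Col4a2 follows a line across mice (r = 0.84), and Col3a1 varies with little relation to Col1a1 (r = 0.19).

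Col4a1 and Col4a2 lie head to head on chromosome 8, and the gene models overlap by 22 bases at their starts. Their start regions are shown because both transcripts differed between mice with the same signs. The windows run from 250 bases before to 50 after the RefSeq start (GRCm38.p6), and overlap by 78 bases. Capitals mark CCAAT and GGGCGG on either strand, the letters of a CCAAT box and of a GC box, so that ATTGG and CCGCCC are the same letters on the opposite strand.
Col4a1, chr8:11312777-11313076, minus strand: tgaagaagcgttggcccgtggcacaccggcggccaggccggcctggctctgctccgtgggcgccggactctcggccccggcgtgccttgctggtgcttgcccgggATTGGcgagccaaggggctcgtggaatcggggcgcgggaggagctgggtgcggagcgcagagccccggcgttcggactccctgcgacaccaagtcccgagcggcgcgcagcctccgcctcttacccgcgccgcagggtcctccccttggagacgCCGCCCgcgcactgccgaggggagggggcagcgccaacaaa
Col4a2, chr8:11312555-11312854, plus strand: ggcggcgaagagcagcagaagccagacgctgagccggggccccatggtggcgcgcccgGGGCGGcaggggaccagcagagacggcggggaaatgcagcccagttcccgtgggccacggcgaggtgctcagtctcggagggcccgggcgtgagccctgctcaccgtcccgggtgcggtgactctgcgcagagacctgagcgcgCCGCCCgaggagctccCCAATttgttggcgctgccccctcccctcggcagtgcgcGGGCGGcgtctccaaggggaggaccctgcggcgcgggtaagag
GC content was 74.0% and 73.7%, and neither window holds TATAAA. Each holds 1 CCAAT, while GGGCGG occurs at 1 place in the first window and 3 in the second. The 1 place of the first window lies in the 78 shared bases. It is the same place as the last of the second window and is counted for both windows. Of 44 collagen genes, 35 had a window in the RefSeq table, 38 windows in all. GGGCGG was in 23 of these 38 windows (60.5%) against 35.7% of 32851 windows of the same length. CCAAT was in 13 (34.2%) against 37.4%, and TATAAA in 5 (13.2%) against 13.6%. A match of letters is a description and not a binding site. With strand handling not given in the sources used here, reads from the 22 shared bases cannot be told apart between the genes.

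Several collagen genes followed the summed markers of other cell types across the lesions. The pairs with marker sums given here and in the next paragraph were chosen after their values were seen. They are among the highest correlations of the 30 members with each marker list, so their height is partly one of choice. Col8a2, a network collagen, had 66.0 CPM in NK1-3 and 16.8 CPM in KO3-1, followed by 12.2, 8.66 and 5.93 CPM in KO1-3, KO1-2 and KO1-1. It had 3.68 CPM in NK2-1, 1.43 in NK1-1 and under 1 CPM in the other 11 lesions. These 7 lesions were also the 7 with an airway marker sum of 2035 CPM or more, while the other 11 had at most 66.5 CPM. As the sums fall into 2 clusters, correlations are given within the 7 lesions only, where r was 0.84 for Col8a2 (rho = 0.75) and 0.91 for Col4a6 (rho = 0.79). Col4a6 had 1.55 to 48.3 CPM in these 7 lesions and at most 5.74 CPM in the other 11. Col23a1 had 153 CPM in NK1-3, 35.8 CPM in KO3-1 and 1.39 to 20.7 CPM elsewhere, and within the 7 lesions r was 0.78 (rho = 0.54). These r values lean on NK1-3 and KO3-1, where the airway sum was 24195 and 15214 CPM and Col4a6 had 38.2 and 48.3 CPM. The rest of the 7 had sums of 2035 to 4016 CPM and 1.55 to 7.61 CPM of Col4a6. Within the 7 lesions, r without NK1-3 and KO3-1 was not computed. All 4 airway markers were detected, led by Scgb1a1. The sum of 6 carcinoma epithelium markers was also highest in NK1-3 (481 CPM), followed by KO1-2, KO1-3 and KO3-1 (284, 247 and 211 CPM). All of these are among the 7 lesions with a high airway sum, so the carcinoma sum is not separate from it. Over 18 lesions the carcinoma sum gave r = 0.87 with Col8a2 and 0.77 with Col23a1, or 0.81 and 0.58 without NK1-3 and KO2-3. Pericyte markers gave 0.68 and 0.59. The part of these cell types in the levels of the genes was not tested.

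Fibroblast marker sums ran with Col5a2 (r = 0.83, rho = 0.59), Col3a1 (r = 0.82, rho = 0.65) and Col14a1, a collagen on the surface of fibrils (r = 0.79, rho = 0.58). Without NK1-1 and NK1-3 these were 0.65, 0.90 and 0.62. Col14a1 had 29.5 CPM in NK1-1, 20.1 in NK1-2 and 0 in NK1-3. The sum of 4 NK cell markers was 22.8 and 15.6 CPM in the NK mice and 3.81, 0.0219 and 0 CPM in the Ctrl mice. By lesion the groups overlapped, with 0 CPM in NK1-3, 5.48 CPM in NK2-2 and 6.55 CPM in KO1-3. Over 18 lesions of both treatments it gave r = 0.75 with Col6a3 (rho = 0.69), 0.72 with Col3a1 (rho = 0.79) and 0.68 with Col5a2 (rho = 0.75), or 0.68, 0.61 and 0.60 without NK1-1 and NK2-3. The part of the NK cell markers was not tested apart from treatment. Col15a1, a collagen of basement membranes around muscle and vessels, ran with smooth muscle markers (r = 0.66, rho = 0.66). Col27a1 ran with the mt-Rnr2 share (r = 0.75, rho = 0.72), and r was 0.70 without KO1-5 and NK1-2.

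**Figure D5:**
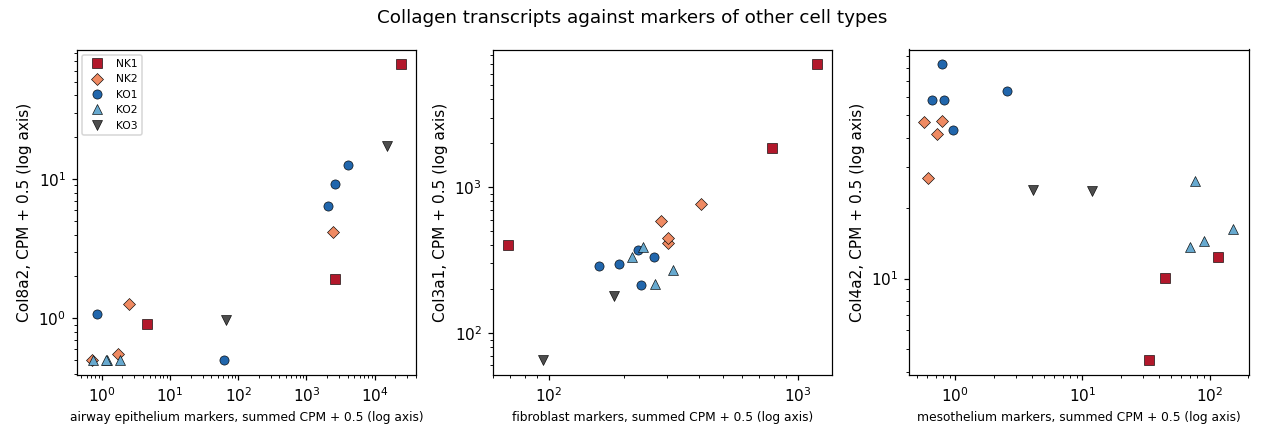
CPM of Col8a2, Col3a1 and Col4a2 in each of 18 lesions against the summed CPM of airway epithelium, fibroblast and mesothelium markers (log axes after adding 0.5), with symbols by mouse. Col8a2 is above 1 CPM in the 7 lesions with a high airway sum, Col3a1 runs with the fibroblast sum apart from NK1-3, and Col4a2 is lowest where the mesothelium sum is high.

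Genes that modify, fold and cross-link collagen chains were counted as a list of 30. Of 28 tested, 0 passed between treatments in edgeR and 1 had an unadjusted p under 0.05 (2.52% of all genes tested did), with 15 positive and 13 negative values and a median of 0.02. That 1 was Plod2, a lysyl hydroxylase whose product feeds stable cross-links, with 97.3 and 50.7 CPM in the NK mice and 28.5, 44.0 and 22.4 CPM in the Ctrl mice (log2 fold change 1.22). By lesion Plod2 overlapped, with 135 CPM in NK1-1, 65.2 in NK1-2, 10.3 in NK1-3 and 40.7 to 55.5 CPM in NK2. Ctrl lesions had 16.6 to 47.8 CPM. Serpinh1, the collagen chaperone HSP47, had 246 and 371 CPM against 258, 393 and 122 CPM (0.26). The fibrillar sum in NK1 was 4962 CPM beside synthesis genes at 3956 CPM in sum, within 3273 to 4300 CPM for the other 4 mice. P4hb alone was 2050 CPM of that sum in NK1 and 1540 to 1932 CPM in the other mice, so the sum tells little of the other genes. Between mice of one treatment 3 of 28 passed, P4ha2, P3h2 and Serpinh1 (adjusted p = 0.0156, 0.0357 and 0.0359, edgeR), beside the 5.35% of all genes. P3h2 had 37.9 CPM in KO3-2 and at most 5.26 CPM in any other lesion, and P4ha2 had 94.7 CPM in NK1-3 and 81.6 CPM in KO3-2 against at most 24.04 CPM elsewhere.

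Of 16 collagen receptors and turnover genes, 15 were tested and 0 passed between treatments, with 8 positive and 7 negative values and a median of 0.04. At an unadjusted p under 0.05 were 2 genes in edgeR, both with negative values, beside the 2.52% of all genes. Itga10, a collagen binding integrin chain, had 1.14 and 2.02 CPM against 6.82, 5.84 and 8.70 CPM (log2 fold change -2.15). Mmp8, the collagenase of neutrophils, had 1.14 and 4.30 CPM against 3.06, 26.9 and 21.3 CPM (-2.61), and the mice overlapped. The cathepsin Ctsk, which degrades collagen, had 12.8 and 38.6 CPM against 16.2, 7.94 and 5.66 CPM (1.37), and the mice overlapped. Between mice of one treatment 2 of 15 passed, Gp6 and Mmp8 (adjusted p = 0.0336 and 0.0197, edgeR), beside the 5.35% of all genes.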

How the data were processed

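Libraries were made from 2 ng of total RNA per lesion, per the labels' protocols. Reads were handled with bcl2fastq 2.17, STAR, RSEM 1.2.28 and DESeq2 on the mm10 build, per the submitters' processing notes. The deposited count table holds the expected counts that RSEM estimates, unscaled by the authors, and they were rounded. The deposited normalized table holds log2 values scaled by the authors by a method not given in the sources used here. It gave the member names and 1 alternative. No sample column was left unused (0 further columns). The members, gene lists and tests were chosen with earlier results of these data known.

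Counts were summed per mouse and fitted with edgeR 4.0.16 (R 4.3.3, filterByExpr with a minimum count of 10 and a total of 15, TMM, robust quasi-likelihood F test) over all genes, with Benjamini-Hochberg adjustment. An SE is the log2 fold change divided by the square root of F. Lesions were fitted with the mouse as a factor for the test between mice. The common coefficient of variation was 64.9% and 67.8%. Alternatives used DESeq2 1.42.0 and limma 3.58.1. Values were given for members past a threshold, for the most abundant of each class, for the 5 smallest p in each direction and for Col1a1, Col3a1 and Col6a3. Further members and list genes were named after their values were seen. Lesions of a mouse differed beyond sampling noise in every pair (lowest chi-square per degree of freedom 21.97). P-values over lesions measure the spread between captures of a mouse. Coordinates are 1-based on GRCm38.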

Additional observations from a re-analysis of the deposited data

Results flagged for a closer look

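Among the 7 NK lesions, 7 of the 20 named collagen genes had 1 lesion far above the others, and all 7 lay in mouse NK1. Chance flags about 1 in 20 groups of normally distributed values, and CPM are skewed. Of all 16917 genes tested, 28.2% had such a lesion, and in 84.7% of these it came from mouse NK1. Lesion NK1-1 had 6953 CPM of Col3a1, with 1843 CPM in the next lesion, and 5.23 CPM of Col11a1, with 1.23 CPM in the next. Lesion NK1-2 had 362 CPM of Col16a1 (next 188 CPM), 186 CPM of Col5a1 (next 83.5 CPM) and 31.6 CPM of Col1a1 (next 14.8 CPM). Lesion NK1-3 had 153 CPM of Col23a1 (next 8.22 CPM) and 38.2 CPM of Col4a6 (next 7.61 CPM). The lesions of NK1 had mt-Rnr2 shares of 47.6%, 65.3% and 52.0%, and their part in these values was not tested.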

How the results depend on the processing

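For treatment, edgeR called 0 collagen genes, DESeq2 1 and edgeR without the low count filter 2. Over all genes the count was 0, with 39 by DESeq2, 224 without the filter and 0 to 4 when a mouse or a lesion was left out (4 without mouse NK2). A fit with the mouse number as a replicate block called 0 collagen genes and 7 genes in all. The labels give the mice only a number in common. Deviations of NK1 and KO1 correlated at 0.096 and those of NK2 and KO2 at 0.29, but with 2 NK mice their deviations mirror each other, so the check tells little. Between mice, the 6 calls became 13 by DESeq2 and 2 to 11 when a lesion was left out (11 without NK1-2, 2 without NK2-3, KO1-1, KO1-3, KO2-1, KO2-2 or KO2-3). Over all genes, 842 calls became 3007 by DESeq2 and 302 (without KO3-2) to 2214 (without KO3-1).

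Of the 20 named genes, Col3a1, Col6a3, Col5a1, Col7a1, Col6a2, Col5a2, Col4a4 and Col11a1 kept their sign of NK against Ctrl in every fit run. For the others a left-out mouse or lesion gave log2 fold changes of -1.65 to 0.45 for Col18a1, -0.30 to 0.40 for Col16a1, -0.47 to 0.57 for Col6a1 and -0.39 to 1.29 for Col1a2. They were -2.06 to 0.20 for Col4a1, -0.38 to 0.22 for Col5a3, -0.084 to 0.74 for Col8a1 and -2.52 to 0.21 for Col4a2. They were -0.81 to 1.13 for Col1a1, -1.56 to 1.31 for Col23a1, -3.51 to 1.98 for Col4a6 and -1.47 to 0.047 for Col24a1. Without the lesions above 40% mt-Rnr2 the sign turned for Col18a1 (0.41), Col16a1 (-0.29), Col5a3 (0.27), Col8a1 (-0.046), Col4a2 (0.14) and Col23a1 (-1.43). With the replicate block it turned for Col1a2 (-0.17), Col5a3 (0.0049) and Col4a6 (1.77). With lesions as units and the mouse as a random block it turned for Col16a1 (-0.10), Col1a1 (0.074) and Col4a6 (0.53). In the normalized table it turned for Col16a1 (-0.048), Col1a1 (0.22), Col4a6 (0.83) and Col24a1 (0.014), and with lesions weighted equally for Col16a1 (-0.017). The cause of these turns was not tested.

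A fit that leaves 1 NK mouse assumes that it varies like the others, and without the lesions of high mt-Rnr2 the test between mice holds Ctrl mice only and called 7 members. Depth limits the 17 members under 100 counts, of which 4 were tested.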
